A study of Mus musculus with 8 samples.

Results

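The regions described here are stretches of 3000 bases or more that F-Seq, a density-based peak caller, joined into 1 peak of open chromatin in myeloid progenitors of the mouse. A peak was kept when it lay on an autosome and its end minus its start came to at least 3000 bases. Of 782566 autosomal peaks in 8 lists, 9952 were this wide. Merged over the lists, they gave 3719 wide regions, out of 203535 merged regions of any width. The regions were chosen by the width of their peaks, so the widths are given below as a description and carry no test, and the tests ask only how the libraries fall into the sorted populations, which the choice did not use.

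Open chromatin was measured by ATAC-seq, in which a transposase cuts accessible DNA and tags it for sequencing, in primary bone marrow cells of wild-type C57BL/6 mice. All cells were KIT+, a stem cell factor receptor of early blood cells, and lacked CD16/32, Fc gamma receptors of granulocyte and macrophage progenitors. They were sorted into 4 populations with 2 libraries each, of 40000 to 50000 cells per preparation. C2 was the CD34bright population and carried CD41 and CD9. The other 3 were CD34dim. C13 had neither CD41 nor CD9, whereas C18 and C10 had both and were parted by CD48, dim in C18 and bright in C10. The series text names partly other clusters than the sample titles, and the titles give the names used below. The labels leave unsaid if both libraries of a population stem from different animals, so that tests over libraries measure a spread that may be technical.

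Most open sites are short and mark a single promoter or enhancer. Long stretches arise where several such sites lie close together, as at promoters rich in CG dinucleotides, at clustered enhancers of cell identity genes and at genes under heavy transcription. In progenitors, genes of this kind include transcription factors that set blood lineages and immediate-early genes, which respond to signals within minutes. Each sample is a bulk of cells, so a site that is open in fewer cells cannot be told apart from one that is less open in each cell.

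The promoters below belong to genes with the start in a wide region, taken from regions wide in different sets of libraries. Each sequence is the 250 bases before the start of transcription, in the RefSeq promoter table of build GRCm38.p6 (mm10), 5′ to 3′ on the strand of the gene, and capitals mark CG dinucleotides. Jun (chr4:95052223-95052472, - strand) and Lyl1 (chr8:84701207-84701456, + strand) lay in regions wide in all 8 libraries. Mpo (chr11:87793534-87793783, + strand) was wide in both C2 libraries, Mecom (chr3:30509760-30510009, - strand) and Foxc1 (chr13:31806396-31806645, + strand) in both C13 libraries, and Cd34 (chr1:194938571-194938820, + strand) in those of C13 and C10. Single libraries of other populations were also wide at Mpo (C18 replicate 1) and at Mecom (C2 replicate 2 and C10 replicate 1). Myct1 (chr10:5593478-5593727, + strand) and Fmnl2 (chr2:52857618-52857867, + strand) were wide in both C10 libraries and in no other.
Jun: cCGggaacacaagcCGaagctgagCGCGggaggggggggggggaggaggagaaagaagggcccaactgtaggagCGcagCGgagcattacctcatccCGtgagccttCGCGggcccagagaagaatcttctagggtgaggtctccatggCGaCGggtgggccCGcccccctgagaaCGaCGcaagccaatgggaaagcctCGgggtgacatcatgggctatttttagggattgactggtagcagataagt
Lyl1: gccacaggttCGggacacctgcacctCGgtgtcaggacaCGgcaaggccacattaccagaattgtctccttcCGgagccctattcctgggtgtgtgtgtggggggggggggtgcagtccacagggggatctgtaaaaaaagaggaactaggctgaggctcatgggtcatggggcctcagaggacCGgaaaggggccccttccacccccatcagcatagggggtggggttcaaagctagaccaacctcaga
Mpo: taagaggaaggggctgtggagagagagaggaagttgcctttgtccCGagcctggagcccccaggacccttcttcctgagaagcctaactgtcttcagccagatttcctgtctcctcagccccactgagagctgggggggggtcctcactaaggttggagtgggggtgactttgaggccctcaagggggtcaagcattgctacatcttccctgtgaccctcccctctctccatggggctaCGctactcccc
Mecom: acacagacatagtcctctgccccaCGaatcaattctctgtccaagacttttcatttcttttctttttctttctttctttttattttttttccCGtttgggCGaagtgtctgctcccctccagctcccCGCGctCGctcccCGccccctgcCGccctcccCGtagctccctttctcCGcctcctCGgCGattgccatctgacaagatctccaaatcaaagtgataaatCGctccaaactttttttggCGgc
Foxc1: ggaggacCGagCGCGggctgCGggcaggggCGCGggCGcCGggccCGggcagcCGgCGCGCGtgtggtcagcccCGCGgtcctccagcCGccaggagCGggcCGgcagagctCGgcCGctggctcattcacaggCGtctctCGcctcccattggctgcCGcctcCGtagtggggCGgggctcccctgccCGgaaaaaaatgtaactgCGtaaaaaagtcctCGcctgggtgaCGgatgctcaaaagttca
Cd34: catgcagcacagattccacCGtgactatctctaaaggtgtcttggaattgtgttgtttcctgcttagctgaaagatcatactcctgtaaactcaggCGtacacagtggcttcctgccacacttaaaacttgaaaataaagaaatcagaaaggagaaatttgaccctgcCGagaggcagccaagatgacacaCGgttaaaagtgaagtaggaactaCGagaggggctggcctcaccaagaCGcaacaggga
Myct1: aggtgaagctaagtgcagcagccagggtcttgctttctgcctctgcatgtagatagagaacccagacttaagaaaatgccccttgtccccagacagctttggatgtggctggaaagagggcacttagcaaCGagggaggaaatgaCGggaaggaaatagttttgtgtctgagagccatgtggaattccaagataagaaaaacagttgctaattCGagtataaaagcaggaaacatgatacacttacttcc
Fmnl2: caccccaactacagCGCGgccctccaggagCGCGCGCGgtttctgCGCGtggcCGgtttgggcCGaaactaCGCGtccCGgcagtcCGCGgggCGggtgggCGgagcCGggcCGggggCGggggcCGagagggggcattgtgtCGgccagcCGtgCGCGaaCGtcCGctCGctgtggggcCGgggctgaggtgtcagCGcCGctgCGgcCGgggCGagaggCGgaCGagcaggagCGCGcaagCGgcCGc
The printed stretches held from 2 CG dinucleotides at Mpo to 40 at Fmnl2. Jun had 15, Mecom 14, Foxc1 29, Cd34 6, Lyl1 5 and Myct1 3. A wide region thus occurred at promoters with many CG dinucleotides and at promoters with very few. Of the 5 motifs searched on both strands, AGATAA occurred in the stretches of Jun and Myct1, CCGGAAG in that of Lyl1 and TGTGGT in that of Foxc1. TGACTCA and TGACGTCA occurred in none of the 8.

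How many wide peaks a list held differed between the libraries. The C13 lists held 1558 and 1713, the C10 lists 1325 and 1650, the C2 lists 1499 and 1276, and the C18 lists 169 and 762. The mean ± SD over 2 libraries was 1635.5 ± 109.6 for C13, 1487.5 ± 229.8 for C10, 1387.5 ± 157.7 for C2 and 465.5 ± 419.3 for C18. The populations accounted for 72.39% of the variance of the log2 number between libraries, which did not pass 0.05 among all pairings of libraries (p = 0.0571, exact one-sided permutation test). With HOMER peaks joined over gaps of up to 500 bases in place of F-Seq peaks, the share was 97.51% (exact p = 0.00952). Each F-Seq list held 100000 peaks, but the HOMER lists held 72379 and 83548 in C18 and 171712 to 260118 in the others. The part of list length in the HOMER share was not tested. By number of wide F-Seq peaks both C18 lists lay below the other 6. So did their F-Seq peaks as a whole, with a median width over all autosomal peaks of 491 and 619 bases against 692 to 802 in the others. Depth is unknown because the lists hold no reads, and its part in the widths was not tested. Wide peaks made up 0.172% to 1.76% of the peaks of a list and 0.991% to 6.56% of the bases under its peaks.

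**Figure D1:**
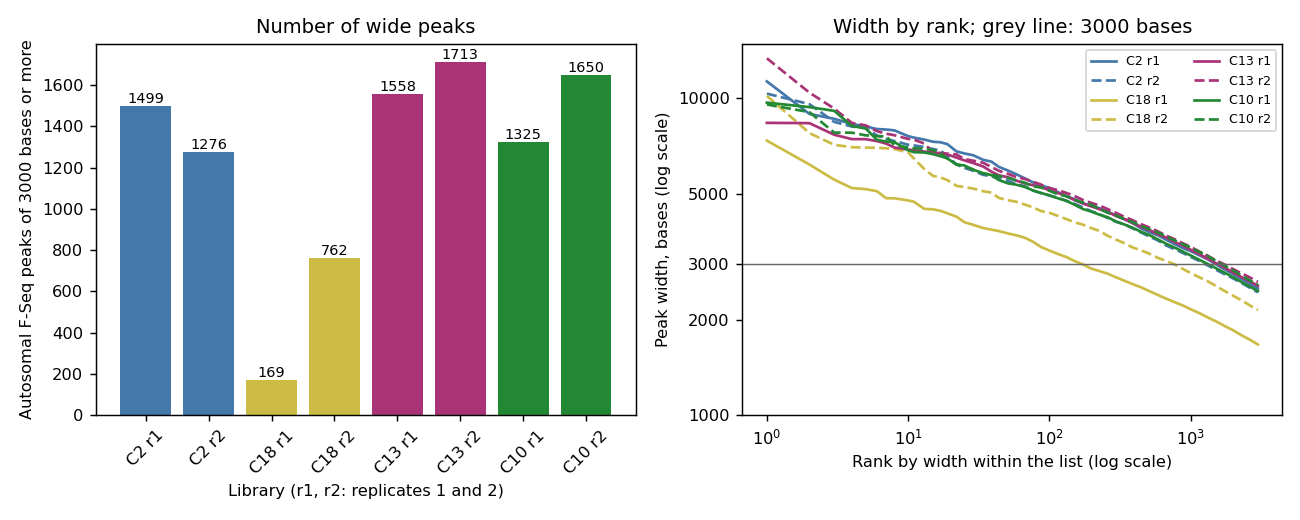
Number of autosomal F-Seq peaks of 3000 bases or more in each of the 8 libraries (left, bars, 1 value per library) and peak width in bases against the rank by width within the list, both on log axes (right, 1 line per library, replicate 1 solid and replicate 2 dashed). The C18 libraries held 169 and 762 such peaks and the other 6 held 1276 to 1713. The curve of C18 replicate 1 runs below all others, with 2160 bases at rank 1000.

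Most wide regions were wide in few libraries. Of the 3719, 1570 (42.2%) were wide in 1 library, 638 in 2, 471 in 3, 323 in 4, 250 in 5, 236 in 6, 156 in 7 and 75 (2.02%) in all 8. Being wide and being open were not the same. In each library, 97.3% to 99.7% of the 3719 regions held an F-Seq peak of some width. Both libraries of C13 were wide at 1189 regions, both of C10 at 934, both of C2 at 732 and both of C18 at 117.

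Whether wide peaks follow the sorted populations was asked from their overlap, which the choice by width did not use. The overlap of 2 lists was the Jaccard index, the bases under wide peaks of both lists over the bases under wide peaks of either. It was 0.5525 between the C13 libraries, 0.439 between those of C10, 0.3387 between those of C2 and 0.1376 between those of C18. Between populations the mean over 4 pairs of libraries was highest for C13 with C10 (0.3937), followed by C2 with C10 (0.3109) and C2 with C13 (0.2979). By this index C18 shared less with each of the others, with 0.1527 for C2, 0.1265 for C10 and 0.1175 for C13. List size limits the index, and wide peaks covered only 0.61 Mb in C18 replicate 1 and 2.783 Mb in C18 replicate 2. They covered 4.785 to 6.458 Mb in the other 6 lists. Of the regions wide in C18 replicate 1, 70.1% to 82% were also wide in any given library of another population. For C18 replicate 2 this share was 43.2% to 55.8%. The mean Jaccard index was 0.3669 within populations and 0.2332 between them. This difference of 0.1337 was larger than under any of the other pairings of the 8 libraries, of which the next gave 0.08966 (exact permutation test, one-sided, p = 0.00952, the smallest that the pairings allow). It rested in part on the C13 pair: without C13 replicate 1 or without C13 replicate 2 it was 0.08367 or 0.08443, with an exact p of 0.0667 in both cases. The order did not hold for each library: C2 replicate 2 overlapped C10 replicate 2 (0.3533) more than C2 replicate 1 (0.3387), and C18 replicate 2 overlapped each of the 6 libraries of other populations (0.1632 to 0.2193) more than C18 replicate 1 (0.1376).

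**Figure D2:**
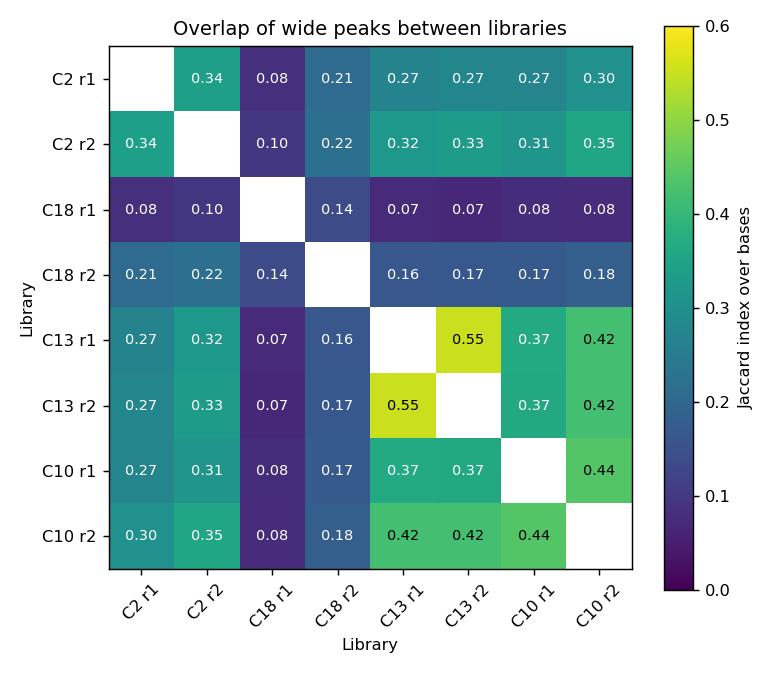
Jaccard index over bases of the wide peaks for each pair of the 8 libraries (rows and columns, r1 and r2 for replicates 1 and 2, colour from 0 to 0.6). The pair of C13 libraries has the highest index, 0.5525, the C13 and C10 libraries form a block of high values from 0.3654 to 0.4213, and C18 replicate 1 has the lowest values.

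A second test chose regions in the replicate 1 libraries and read them in the replicate 2 libraries. Regions wide in 1 replicate 1 library and in no other replicate 1 library numbered 642 for C2, 13 for C18, 554 for C13 and 367 for C10. Of the C13 regions, 59% were wide again in C13 replicate 2, against 31.2% in C10 replicate 2, 15.7% in C2 replicate 2 and 6.68% in C18 replicate 2. Of the C10 regions, 39% were wide in C10 replicate 2 and 17.2% to 18.8% in those of C13 and C2. The C2 regions recurred less, at 23.1% in their own population against 11.7% to 15% in the others. Averaged over the 4 populations, the share in the own population exceeded that in the others by 21.42 percentage points (exact permutation test over 24 assignments, one-sided, p = 0.0417, the smallest possible). In the reverse direction the excess was 16.66 percentage points (exact p = 0.0417). With the joined HOMER peaks the excess was 4.587 percentage points (exact p = 0.292), and without C13 replicate 1 it was 10.57 (exact p = 0.125). For C18 the forward direction rested on the 13 regions, of which 2 were wide in C18 replicate 2 and 2 in C13 replicate 2. In the reverse direction C18 went against the excess. Of 258 regions chosen in C18 replicate 2, 1.55% were wide in C18 replicate 1 and 18.2% in C2 replicate 1. But C18 replicate 1 was wide at 167 regions in all and C2 replicate 1 at 1490, which limits this comparison.

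The 75 regions wide in all 8 libraries lay mostly at gene starts, with a protein-coding start in 56 of the 73 on chromosomes for which the promoter table lists starts (76.7%). The table lists starts for 16456 of 20661 autosomal protein-coding genes and for none on chromosome 18, so shares of regions with a start are lower bounds. Across all genes with a listed start, 0.377% had it in a region wide in all 8 libraries and 13.7% in a region wide in any. The 10 regions with the greatest mean width are described first.

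The AP-1 subunit gene Jun was among them, at chr4:95047304-95055996. Its peak measured 8162 and 8053 bases in C2, 6183 and 6990 in C18, 7436 and 7409 in C13, and 7305 and 7796 in C10. C13 lay within the range of C10, C2 above it and C18 below it. Pcdh7, a protocadherin gene, had peaks of 9383 and 9563 bases in C10, 8369 and 8220 in C13, 7518 and 7054 in C2, and 5171 and 6750 in C18 (chr5:57713116-57722685). No value of one population fell within another there, and the order was C10, C13, C2 and C18. The prothymosin alpha gene Ptma ranged from 4839 to 5987 bases with the populations interleaved.

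The region at the 5′ end of Neat1, the long non-coding RNA that scaffolds nuclear paraspeckles, held the widest peaks of 3 of the 8 libraries (chr19:5839434-5850753). The peak measured 11310 and 9590 bases in C2, 7356 and 10185 in C18, 5216 and 5906 in C13, and 3502 and 6017 in C10. C2 and C18 thus lay above C13 and C10, and here the C18 peaks were wide although most peaks of that population were narrow. No protein-coding start is listed in this region, and the naming rule for protein-coding genes gives Frmd8, whose nearest start is 30115 bases away. At the neighbouring long non-coding RNA Malat1 the widest peak had 6395 and 4639 bases in C2 and 2452 and 4037 in C18, against 2117 and 2478 in C13 and 1346 and 2342 in C10. C2 was highest there too, and C18 replicate 1 lay among the C13 and C10 values.

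Lyl1, a basic helix-loop-helix factor of blood stem cells and progenitors, had its widest peaks in C2, with 7600 and 8149 bases, and in C18 replicate 2 with 6919 (chr8:84698429-84708910). The other libraries had 3134 in C18 replicate 1, 3372 and 3482 in C13, and 5173 and 3216 in C10. The bases of the region under peaks of any width differed less, from 6710 to 9813, so that the wide C2 peak corresponded to several narrower peaks elsewhere. The region that holds the starts of Jund and Iqcn measured 6803 and 5299 bases in C2, 4817 and 7770 in C18, 3926 and 3935 in C13, and 5023 and 5680 in C10. The others of the 10 were at Tgif1, a homeobox corepressor of TGF-beta signalling, near Rbm38, an RNA-binding protein, at Klf13, a Krüppel-like factor, and at Spry2, an inhibitor of receptor tyrosine kinase signalling. Their peaks ranged from 3201 bases at Spry2 in C18 replicate 2 to 7923 at Tgif1 in C2 replicate 1. Pcdh7 held the widest peak of C13 replicate 1 and of C10 replicate 2. The widest peaks of the remaining libraries were at Fosb, with 10349 bases in C2 replicate 2, at the immunoglobulin heavy chain locus in C13 replicate 2 and at Il3ra, the interleukin 3 receptor alpha chain, with 9693 bases in C10 replicate 1. At Il3ra the replicates of a population lay far apart, with 7412 and 3828 bases in C2, 3556 and 1369 in C18, 5769 and 10426 in C13, and 9693 and 5305 in C10.

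**Figure D3:**
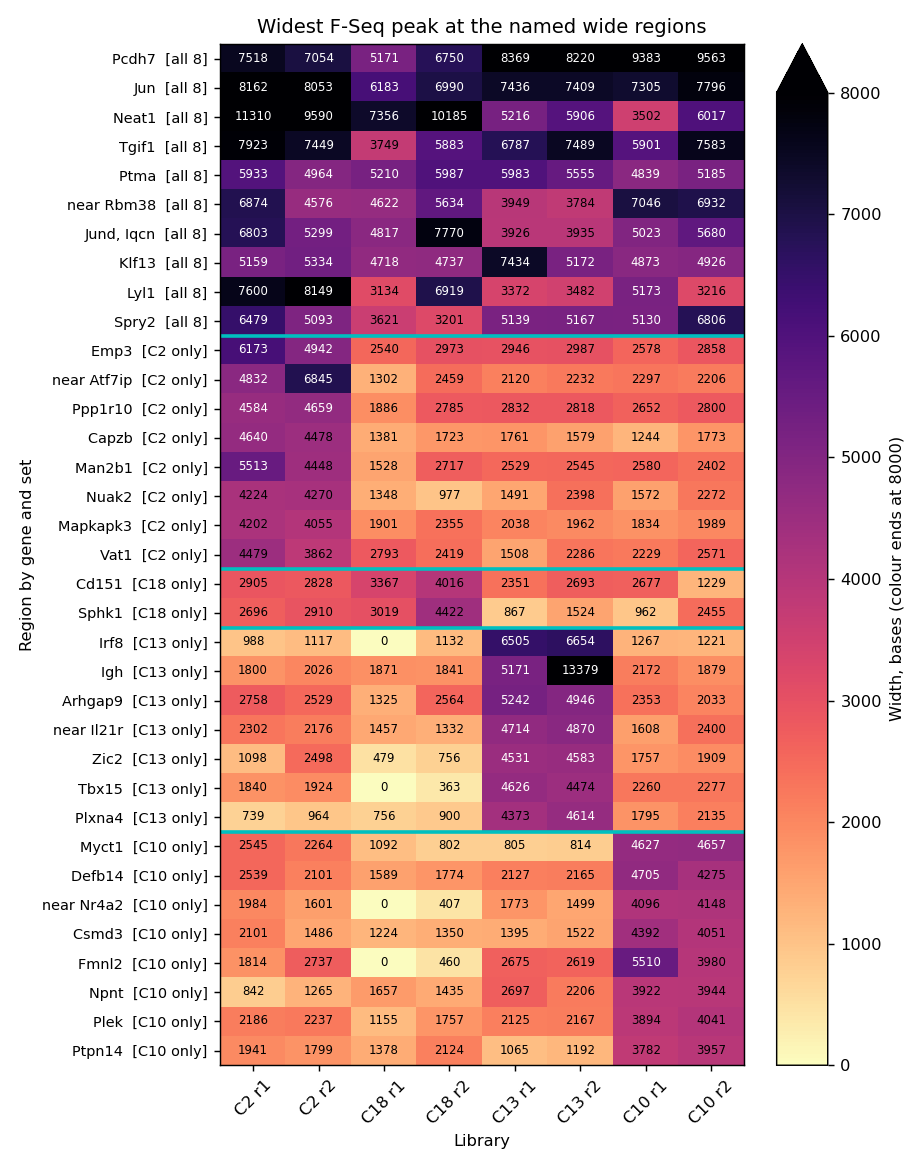
Width in bases of the widest F-Seq peak (number and colour, the colour scale capped) in each library (columns, r1 and r2 for replicates 1 and 2) at 10 regions wide in all 8 libraries and at up to 8 regions wide in both libraries of 1 population and in no other library (rows, 0 where the list holds no peak). Regions of the C13 set have between 0 and 2758 bases in the other 6 libraries, with the 2758 at Arhgap9. In the C2 set the widest peak of another population ranges from 1773 bases at Capzb to 2987 at Emp3.

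Regions wide in both libraries of 1 population and in no other library were most numerous for C13, with 146, against 65 for C2, 65 for C10 and 2 for C18. Single libraries of other populations set these counts in part: without C10 replicate 2 the C13 set numbered 237, and without C2 replicate 2 the C10 set numbered 100. Because 3000 bases is a fixed limit, many of them were nearly as wide elsewhere. In at least 1 library of another population the peak reached 2500 bases at 46 of the 65 C2 regions (70.8%), 44 of the 65 C10 regions (67.7%) and 67 of the 146 C13 regions (45.9%). The widest other peak had a median of 2711 bases for the C2 set, 2677 for the C10 set and 2399.5 for the C13 set, beside 3223, 3189 and 3298.5 in the narrower own library. At 8 regions, all of the C13 set, every other library stayed below 1500 bases.

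The region at the 3′ end of Irf8, the interferon regulatory factor of monocyte and dendritic cell development, stood out most in C13 (chr8:120750062-120756715). Its peak measured 6505 and 6654 bases in C13, against 988 and 1117 in C2, 1267 and 1221 in C10 and 1132 in C18 replicate 2, and C18 replicate 1 listed none. A second region began just beyond it, at chr8:120756794-120760937, with 4029 and 4144 bases in C13. There C10 replicate 2 had 1154 bases, C18 replicate 2 had 348, and the other 4 libraries listed no peak. HOMER, the second peak caller, listed 1 peak in each C13 library within the first region, fewer than the 4 to 5 in C10 and the 2 to 3 in C2. In the second region it listed 6 and 7 peaks in the C13 libraries, 1 in C10 replicate 2 and 0 in the other 5.

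The immunoglobulin heavy chain locus Igh, from the J segments to the mu constant gene Ighm, was another C13 region (chr12:113418755-113432133). The widest peak there had 5171 and 13379 bases in C13, 1800 and 2026 in C2, 1871 and 1841 in C18, and 2172 and 1879 in C10. The bases under any peak were 9772 and 13379 in C13 and 3112 to 5748 in the other 6 libraries. HOMER listed 10 and 12 peaks there in C13 and 4 to 16 in the others. Igh encodes the antibody heavy chain of B cells.

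Other C13 regions were at genes of signalling and of development. Arhgap9, the gene of a GTPase-activating protein, had 5242 and 4946 in C13 and 1325 to 2758 elsewhere. The region whose nearest start is that of Il21r, the interleukin 21 receptor, 33788 bases away, had 4714 and 4870 in C13 and 1332 to 2400 elsewhere. At Zic2 and Tbx15, transcription factors of embryonic development, and Plxna4, a semaphorin receptor, C13 had 4373 to 4626 bases. The other libraries had at most 2498 at Zic2, 2277 at Tbx15 and 2135 at Plxna4.

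The 8 regions with every other library below 1500 bases were looked up after their values were seen. They comprise the 2 at Irf8, and regions at the starts of Asb2, a substrate receptor of an E3 ubiquitin ligase, Foxc1, a forkhead factor, and Macroh2a1, a histone variant. Asb2 had 4066 and 5657 bases in C13 and at most 1495 elsewhere. Foxc1 had 3825 and 3682 in C13, 1421 and 1478 in C10, 681 and 1078 in C2, and 422 and 921 in C18. Macroh2a1 had 3504 and 4174 in C13 and at most 1477 elsewhere, although 3419 and 3316 bases of its region lay under narrower peaks in C2. The remaining 3 lay in the body of Cdyl2, beside Sel1l3, and 20278 bases from the start of Dapp1, a signalling adapter of B cells.

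The C2 regions lay at genes of many functions. Emp3, a gene of a small membrane glycoprotein, had 6173 and 4942 bases in C2 and 2540 to 2987 in the other 6 libraries (chr7:45919109-45925281). Those 6 libraries had 3593 to 5601 bases of the region under peaks, beside 6173 and 4942 in C2, so that total open length overlapped while the single peak did not. Capzb, an actin capping protein subunit, was further apart, with 4640 and 4478 bases in C2 and 1244 to 1773 elsewhere. Nuak2, a kinase related to AMP-activated kinase, had 4224 and 4270 in C2 and 977 to 2398 elsewhere. Mapkapk3, a kinase downstream of p38, had 4202 and 4055 in C2 and 1834 to 2355 elsewhere. Ppp1r10, a regulatory subunit of protein phosphatase 1, had 4584 and 4659 in C2 and up to 2832 elsewhere. The rest were at Man2b1, a lysosomal mannosidase, at Vat1, and at a region with its nearest start, that of Atf7ip, 51333 bases away. Runx1, a master factor of definitive blood formation, was among the 65, with 3754 and 3520 bases in C2 and 2092 to 2975 in the others, where C13 replicate 2 had the 2975.

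The myeloperoxidase gene Mpo, which encodes the main enzyme of neutrophil primary granules, had wide regions in C2 and in C18 replicate 1. The region at its start (chr11:87792922-87796963) measured 3778 and 3791 bases in C2 and 4023 in C18 replicate 1. It measured 1260 in C18 replicate 2, 824 and 1581 in C13, with 1098 and 1180 in C10. A second region (chr11:87802257-87810058) overlapped both its 3′ end and the gene Lpo. That region measured 7802 and 5326 in C2, 4232 and 2612 in C18, 796 and 816 in C13, and 860 and 949 in C10. There both C2 and both C18 libraries lay above all 4 libraries of C13 and C10. Prtn3, the gene of the granule protease proteinase 3, had 3371 and 6129 bases in C2, and 1714 to 2670 in the others. The bases under any peak there lay nearer, with 5719 and 6129 in C2 and 5464 and 3297 in C18. They were 4076 to 4834 in C13 and C10. Srgn, the core protein of granule proteoglycans, had 7425 and 4017 in C2 and 3927 in C10 replicate 2, with 1834 to 2600 in the others.

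The C10 regions included the start of Myct1, a Myc target gene known from endothelium and blood stem cells (chr10:5591002-5595661). The peak measured 4627 and 4657 bases in C10, 2545 and 2264 in C2, 1092 and 802 in C18, and 805 and 814 in C13. C2 lay between C10 and the other 2 populations there. Npnt, the gene of the matrix protein nephronectin, had 3922 and 3944 bases in C10, 2697 and 2206 in C13, 842 and 1265 in C2, and 1657 and 1435 in C18. Plek, the gene of the platelet protein pleckstrin, had 3894 and 4041 in C10 and 1155 to 2237 elsewhere. Fmnl2, a formin of actin assembly, had 5510 and 3980 in C10, 2675 and 2619 in C13, 1814 and 2737 in C2, 460 in C18 replicate 2 and no peak in C18 replicate 1. A region 20804 bases from the start of Nr4a2, an orphan nuclear receptor, had 4096 and 4148 in C10 and up to 1984 elsewhere. Defb14, a beta-defensin, Csmd3 and Ptpn14, a tyrosine phosphatase, completed the 8, with 3782 to 4705 bases in C10 and 1065 to 2539 elsewhere.

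C18 had 2 regions of its own, at Cd151 and Sphk1. Cd151, a tetraspanin gene, had 3367 and 4016 bases in C18 and 2905 and 2828 in C2. C13 had 2351 and 2693 there and C10 had 2677 and 1229. Sphk1, sphingosine kinase 1, had 3019 and 4422 in C18 and 2696 and 2910 in C2. C13 had 867 and 1524 there and C10 had 962 and 2455. At both genes C2 followed closely after C18. With 169 wide peaks in one of its libraries, C18 could reach few regions by a fixed width. When each list instead gave its 1000 widest peaks, 397 regions were found in both C18 libraries, and 78 of them in no other library, against 80 for C13 counted in the same way. Among the 8 widest of these in the narrower C18 library, Slc39a7, a zinc transporter, had 4438 and 2999 in C18 and 887 to 2673 elsewhere, and its C18 libraries lay above the other 6. At Scarb1, by contrast, C18 had 3788 and 3020 bases and C10 3120 and 3079, and the regions differed in rank more than in width.

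Other regions were wide in 2 or 3 populations. C13 and C10 together, with neither library of the others, were wide at 100 regions, and C2, C13 and C10 without C18 at 162. C2 with C13 had 16 such regions, C2 with C10 had 13, C2 with C18 had 3 and C18 with C10 had 2.

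**Figure D4:**
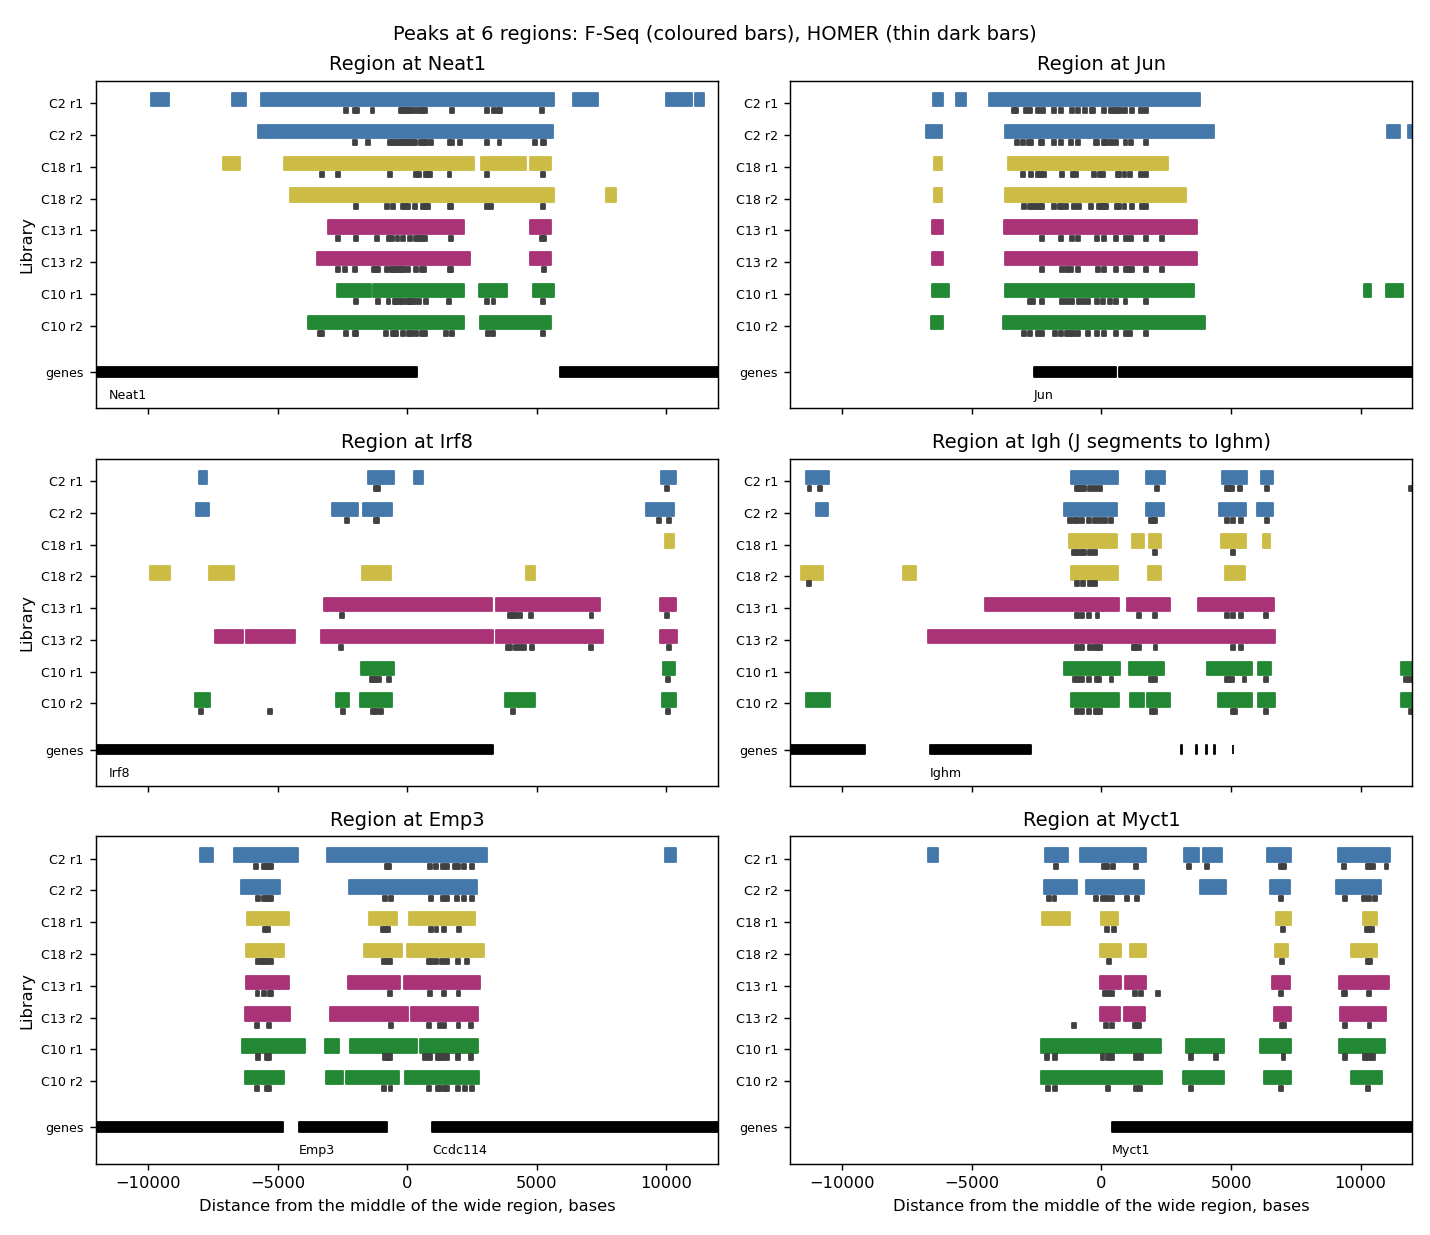
F-Seq peaks (coloured bars) and HOMER peaks (thin dark bars) in each of the 8 libraries (r1 and r2 for replicates 1 and 2) at 6 wide regions, by distance in bases from the middle of the region, with gene bodies in black. At Irf8 the C13 libraries carry a peak of 6505 and 6654 bases where others have short peaks or none, whereas at Emp3 the other libraries cover much of the same stretch with 2 or more shorter peaks.

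Narrower peaks covered part of these stretches in the other populations. Within the 146 regions of C13, the median share of a region under F-Seq peaks was 97.4% and 99% in C13, 72.1% and 76% in C10, 66.8% and 68.4% in C2, and 34.7% and 42.8% in C18. The median widest single peak was 3380.5 and 3446.5 bases in C13, 1861 and 2042 in C10, 1631.5 and 1850 in C2, and 872.5 and 1142.5 in C18. Within the 65 regions of C2 the other populations had a median of 62.3% to 77.2% of the region under peaks, and within the 65 of C10 from 43.9% to 74.3%. A HOMER peak was present in both own libraries at 144 of the 146 C13 regions, 63 of the 65 C2 regions and 63 of the 65 C10 regions. This was near the share over all 3719 wide regions, of which 97% to 98.9% held a HOMER peak in each library of C2, C13 and C10. In the C13 set the median number of HOMER peaks per region was 5 and 6 in C13, 5 and 5 in C10, 4 and 4 in C2, and 1 and 1 in C18. The C18 libraries also had the shortest HOMER lists. Across whole lists, 0.592% to 1.41% of wide peaks held no HOMER peak of their library, against 5.76% to 58.6% of the other F-Seq peaks. Wide peaks are longer, so these shares do not compare like lengths. Per kb, wide peaks held 1.75 to 2.085 HOMER peaks and other peaks 1.021 to 2.288. The wide peaks had the lower value in both C13 and both C10 libraries and in C2 replicate 2. They had the higher value in C2 replicate 1 and both C18 libraries.

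Genes of 14 lists were looked up at the regions wide in both libraries of a population, by whether the start of the gene lay inside. Of all 16456 genes with a listed start, 3.40% had it in such a region in C2, 0.596% in C18, 4.92% in C13 and 3.78% in C10. The lists were chosen with results of these data known and carry no test.

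Of the haematopoietic transcription factors, 15 of 32 were at wide regions in C2, 15 in C13, 12 in C10 and 2 in C18 (46.9%, 46.9%, 37.5% and 6.25%). Etv6, Gfi1, Hhex, Klf6, Mef2c, Meis1, Mycn and Fos were wide in C2, C13 and C10, and Lyl1 and Junb in all 4 populations. Mycn, a Myc family gene, had 6309 and 6187 bases in C2, 2760 and 3459 in C18, 6512 and 6840 in C13, and 6567 and 7001 in C10. Both C18 libraries thus lay below all others at Mycn. The factors that follow were wide in both libraries of only some of C2, C13 and C10. Mecom, a zinc finger factor of stem cells, had 6899 and 5339 bases in C13, 3389 and 2418 in C10, 2584 and 3101 in C2, and 1952 and 1944 in C18. C13 was highest at Mecom, but C10 had 7594 and 6821 bases of that region under peaks of any width, beside 8040 and 6365 in C13. Gata2, a zinc finger factor of stem cells and early megakaryocyte and mast cell progenitors, passed in C10, with 3108 and 3570 bases. C2 had 2964 and 5031, overlapping C10, and C13 (2002 and 2096) and C18 (1884 and 1824) were lower. Gata3, a factor of lymphoid cells, was wide in C2 with 4553 and 4609 bases and in C10 with 4450 and 3449. It reached 2487 and 2532 in C13 and 951 and 1946 in C18. By bases under peaks of any width, C13 had 7250 and 6166 there, beside 6904 and 7765 in C2 and 7528 and 7851 in C10. Cebpa, a factor of granulocyte development, had 4156 and 4155 in C13, but C2 replicate 2 and C10 replicate 2 reached 3927 and 4550. Erg, an ETS factor of stem cells, had 3247 and 3335 in C13 and up to 2390 elsewhere. Bcl11a, a repressor of fetal globin genes, was wide in C2, with 8617 and 5238 bases, and in C13 with 3776 and 3223. C10 had 2891 and 3592 there, overlapping C13, and C18 had 2615 and 2895. Bases of that region under any peak were 8812 and 8928 in C2 and 8640 and 8213 in C13. They were 7894 and 8299 in C10, and 5921 and 8199 in C18. Ikzf1 was called in C2 with 3545 and 3003, where C10 replicate 1 had 3438 and C13 replicate 2 had 3239.

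Immediate-early and signal-induced genes numbered 14 of 34 for C13, 13 for C10, 11 for C2 and 4 for C18. Jun, Junb, Jund and Dusp6, the last a phosphatase that dampens ERK signalling, were wide in both libraries of all 4 populations. Fosb had 8002 and 10349 bases in C2, 2117 and 4013 in C18, 6209 and 6262 in C13, and 6166 and 4448 in C10. Fos had 6269 and 5239 in C13, 3770 and 4892 in C2, 3293 and 4358 in C10, and 1526 and 1658 in C18. Dusp2, a phosphatase of activated lymphoid cells, had 6752 and 7267 in C13, 5017 and 5608 in C10, 5708 and 2853 in C2, and 1951 and 1978 in C18. Pim1, a serine kinase induced by cytokines, had 6397 and 4785 in C2 and 4704 in C18 replicate 2, but 1926 in C18 replicate 1, 2954 and 3349 in C13, and 2084 and 2998 in C10. Egr2, Btg2, Klf4 and Zfp36l1 passed in C13, and Egr2 in C10 as well. At these 4 genes at least 1 library of another population also reached 3000 bases, as with 4186 at Egr2 in C2 replicate 2 and 4706 at Klf4 in C10 replicate 1.

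Of the stem and multipotent genes, 7 of 21 had the start in a wide region of C13, 6 in one of C10, 4 in one of C2 and 0 in one of C18. Meis1, Hlf and Mycn were wide in C2, C13 and C10. Sox4 was wide in C13, with 4758 and 3528 bases, and in C10, with 3515 and 3146. Flt3, the cytokine receptor of multipotent and lymphoid progenitors, had 3476 and 3673 in C13, 3428 and 2597 in C2, 2018 and 2998 in C10, and 740 and 1575 in C18. Mllt3, a stem cell maintenance gene, passed in C2 with 3426 and 3776, and C13 replicate 1 had 5323 there.

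Among the genes of the sort markers, Cd34 was the only one with its start in a region wide in both libraries of a population, and not in the CD34bright one. The region at Cd34 (chr1:194937625-194944281) had peaks of 3550 and 3273 bases in C13 and 3588 and 6318 in C10, both CD34dim. It had 2355 and 1708 in C2 and 1025 and 1883 in C18. The bases under any peak there were 6237 and 5750 in C13, 6193 and 6318 in C10, and 4257 and 5675 in C2, which came nearer by total open length. Within the gene bodies of the other sort markers the widest peak had 1518 to 3135 bases at Kit, 1332 to 3073 at Cd9, 1037 to 1525 at Itga2b (CD41) and 885 to 1868 at Cd48. It had 566 to 1212 bases at Fcgr2b and 0 to 937 at Fcgr3, the CD16/32 genes. C13, sorted as CD9-, had 2401 and 2534 bases at Cd9, within the range of the CD9+ libraries. The C10 libraries had 3073 and 3000 there, in the gene body and not at its start.

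Genes of mature lineages gave small counts, from lists too short to set apart from the share over all genes. None of 24 erythroid, 17 lymphocyte and 9 macrophage genes had the start in a region wide in both libraries of any population. Of 23 megakaryocyte and platelet genes, 2 did in each of C2, C13 and C10 and 0 in C18. Those were Mef2c with Nbeal2, a platelet granule gene, in C2 and C13, and Mef2c with Gp5, the platelet glycoprotein V gene, in C10. Gp5 had 3772 and 3617 bases in C10. C2 had 2616 and 3327 there, C13 had 2355 and 1890, and C18 had 905 and 1815. Of 24 granulocyte and monocyte genes, C2 had Mpo and Prtn3, and the other populations had Csf2ra, the alpha chain of the GM-CSF receptor. Csf2ra had 3602 to 4243 bases in 7 libraries, C2 replicate 2 among them, and 586 in C2 replicate 1. HOMER listed 13 peaks there in C2 replicate 1 and 11 to 16 in the other libraries. Of 15 mast cell, basophil and eosinophil genes, C2 had Srgn. Of 12 stroma and endothelium genes, C13 and C10 had Kitl, the KIT ligand gene, with 3286 and 3219 bases in C13, 3356 and 3190 in C10, and 1370 to 2112 elsewhere.

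The housekeeping list had Gapdh and Ptma in every population, 2 of 14. Of 14 genes of non-haematopoietic tissues, C13 had Pax6, Olig2 and Foxa2, C10 had Foxa2, and C2 and C18 had none. Olig2, a factor of oligodendrocytes, had 3311 and 3370 bases in C13, 881 and 1841 in C10, 975 in C2 replicate 2, 796 in C18 replicate 2, and no peak in the replicate 1 libraries of C2 and C18. Pax6, a factor of eye and brain development, had 4528 and 6739 in C13 and 4601 and 2970 in C10, with 665 to 2264 in C2 and C18. These 3 factors are known from other tissues. Of 11 long non-coding RNA and microRNA host genes, 7 had an F-Seq peak in all 8 libraries. Beside Neat1 and Malat1, Gas5 reached 2471 to 4103 bases, Dleu2 2810 to 5268 and Snhg1 1083 to 2365.

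**Figure D5:**
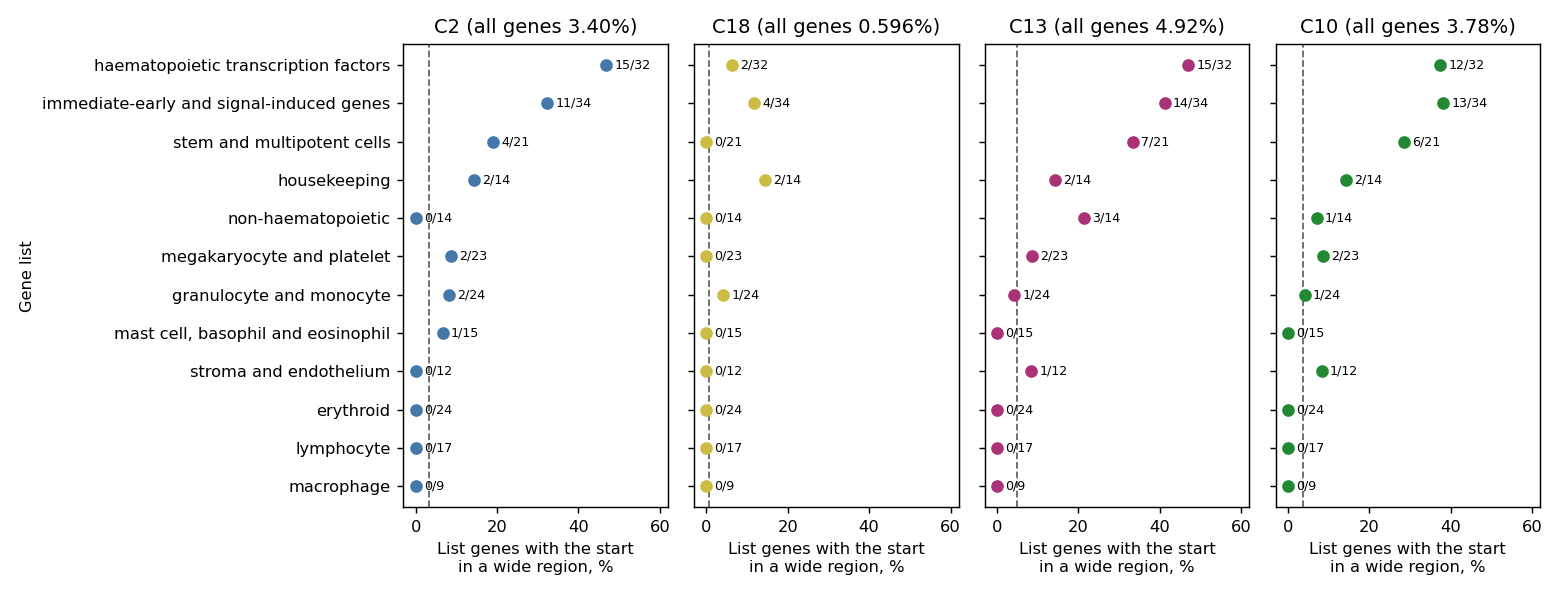
Share of the genes of 12 lists, in percent, whose start lay in a region wide in both libraries of a population (points, with the count of list genes beside each), in 1 panel per population, and the same share over all genes (dashed line). Transcription factors reach 15 of 32 in C2 and C13 and 12 of 32 in C10, and the erythroid, lymphocyte and macrophage lists are at 0 in each panel.

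A gene can also carry a wide region at its other end, so the lists were read a second time by either end of the gene body. On this reading 3.26% of 20661 genes were at a wide region in C2, 0.610% in C18, 4.76% in C13 and 3.78% in C10. The transcription factors numbered 16 of 43 in C2, 2 in C18, 18 in C13 and 14 in C10. Irf8 entered in C13 and Ikzf2, an Ikaros family factor, in C13, with 5986 and 5936 bases, and in C10 with 3319 and 3356. Myc, Fli1 and Cebpd entered in C2, C13 and C10. Egr1 entered in C2, with 6374 and 6964 bases, and in C10 with 4940 and 5323, while C13 had 3523 and 2393. The housekeeping genes numbered 6 of 18 in C2, 3 in C13, 3 in C10 and 2 in C18. Eef2, a translation elongation factor, had 3976 and 3021 in C2 and 5264 in C18 replicate 2, but 1114 to 2455 in the other 5 libraries. Actb had 5294 and 5443 in C2, 5363 in C18 replicate 2 and 5206 in C10 replicate 2, and 2350 to 3045 in the other 4.

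With the 1000 widest peaks of each list, which gives every library the same number, the background was 2.39% in C2, 2.09% in C18, 3.02% in C13 and 2.50% in C10. The transcription factors then numbered 14 of 32 in C2, 6 in C18, 12 in C13 and 10 in C10. C18 gained Bcl11a, Klf6, Mycn and Zfpm1 beside Junb and Lyl1. The immediate-early genes numbered 9 of 34 in C2, 7 in C18, 13 in C13 and 11 in C10. C18 remained lowest in both lists, but its background was now close to that of the others.

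Wide peaks lay at gene starts more often than other peaks did. The summit of a wide peak was within 1000 bases of a protein-coding start for 44.4% to 57.6% of wide peaks of a library. This share was 10.2% to 11.4% for its other peaks and 24.9% to 34.8% for other peaks among its 20000 strongest by the authors' signal. Of wide peaks, 70.1% to 95.9% were among the 20000 strongest. In every library the wide peaks had the higher share, also against strong narrow peaks, and the ranges did not overlap. The sets differed in this respect. A start lay in 67.2% of the regions wide in both C2 libraries, 63.9% of those of C13 and 61.8% of those of C10. Of the regions of 1 population alone it lay in 64.1% for C2, 44.4% for C13 and 37.5% for C10. The C13 and C10 regions of this kind were thus more often away from listed starts than those of C2, as at Irf8, Igh and Csmd3.

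The promoters in wide regions were rich in CG dinucleotides. In the 300 bases from 250 before to 50 after the start, the median was 23 in 2764 promoters inside a wide region, 11 in 17320 outside and 14 in all 20084. Fewer than 5 CG were found in 4.92% of those inside and in 31.1% of those outside. The GATA motif AGATAA occurred in 4.92% of promoters inside wide regions and 9.57% of all. The RUNX motif TGTGGT occurred in 9.95% and 14.8%, the AP-1 motif TGACTCA in 2.93% and 4.7%, the ETS motif CCGGAAG in 14.1% and 11.9%, and the CREB motif TGACGTCA in 2.93% and 2.3%. The 3 motifs without a CG were thus rarer inside wide regions than over all promoters, and the 2 with a CG were more frequent. Promoters outside wide regions were not split by whether a narrower peak lay there. Being wide and being open at all therefore cannot be told apart in these contrasts.

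The minimum width cut through a continuous range. The lists held 305 to 1924 peaks of 2500 to 2999 bases and 92 to 843 of 3000 to 3499. The regions just inside, all 3000 bases long and from C10 replicate 1, had Impact, Gpc6 and Sorcs2 as their nearest genes. Those just outside, at 2999 bases in the same library, had Ssx2ip, Zfpm1 and Chd7. Zfpm1, the gene of the GATA cofactor FOG1, was called in C2 (4576 and 3315 bases) and C13 (5202 and 3020). It fell 1 base short in C10 (2999 and 3716), and C18 had 2668 and 7135.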

How the data were processed

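Mouse ATAC-seq was used from 8 libraries of 4 populations, with 2 each. The submitters' processing notes name the build mm10, Bowtie 1.0.0 and HOMER 1.0, per the labels, without their roles. Version and settings of F-Seq are not given in the sources used here. Deposited by the authors were, per library, 1 F-Seq list of 100000 peaks, in falling order of a signal estimated from read density, and 1 HOMER list of peaks of 150 bases with score columns that carry no name. The deposited signal served to rank peaks within a list, and the deposited score was not used. The lists hold no reads, so depth is unknown and counting error cannot be given.

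Wide peaks of 3000 bases or more were merged where they shared a base (Python 3.11.15, pandas 2.3.3, numpy 2.4.6). A region was wide in a library when a wide peak of it lay there. Genes and promoters came from RefSeq tables for GRCm38.p6, the assembly of mm10. A region was named by the protein-coding gene whose start it held nearest to its middle, otherwise by the gene body at its middle, otherwise by the nearest start or gene end. Text names the 10 widest regions of all 8 libraries, up to 8 for each population, the widest peak per library, list genes, sort markers and the regions at the limit, except a few items not reported here. The 3 kinds of exact permutation test compared libraries: overlap, number, and regions read in the other replicate. Scripts were tested on simulated lists. Alternatives were other minimum widths (2500 and 4000), the 1000 widest peaks per list, joined HOMER peaks, and left-out libraries. For the gene lists, the readings by either end and by the 1000 widest peaks were added after seeing the data. The populations share replicate numbers, but the labels do not say that a number marks a shared day or animal. Members and lists were chosen with earlier results of these data known.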

Additional observations from a re-analysis of the deposited data

How the results depend on the processing

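The counts of regions moved with the definition of width. With a minimum of 2500 bases, regions wide in both libraries numbered 1647 for C2, 330 for C18, 2651 for C13 and 2086 for C10, and those of that population alone 106, 5, 316 and 127. With 4000 bases they numbered 170, 17, 299 and 221, and alone 21 for C2, 45 for C13 and 18 for C10. With the 1000 widest peaks per list, C18 had 397, C13 705 and C10 591, and the regions of 1 population alone numbered 32 for C2, 78 for C18, 80 for C13 and 37 for C10. HOMER peaks joined over gaps of up to 500 bases gave 9 for C2, 0 for C18, 40 for C13 and 20 for C10, and alone 1, 0, 15 and 4. The C13 counts were the highest under each of these definitions. Under joined HOMER peaks, from lists of unequal length, populations accounted for 97.51% of the variance in number (exact permutation p = 0.00952). The excess in the other replicate was then 4.587 percentage points (exact permutation p = 0.292). Without the C18 libraries the overlap difference was 0.1092 (exact p = 0.0667) and the excess 22.51 percentage points (exact p = 0.167), both the smallest p possible then. The cause of these changes was not tested.

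Leaving out each library in turn, the overlap difference ranged from 0.08367 to 0.1941, the share of variance in number from 70.58% to 99% and the excess in the other replicate from 10.57 to 25.43 percentage points. A population left with 1 library needs that library alone to be wide, which raises its counts. Regions wide in both libraries then ranged from 732 to 1494 for C2, 117 to 760 for C18, 1189 to 1707 for C13 and 933 to 1645 for C10. Those of that population alone ranged from 69 to 441, 2 to 194, 146 to 384 and 65 to 291. With the replicate block, which pairs libraries of replicate 1 with those of replicate 2, the overlap difference was 0.1337 (exact permutation p = 0.0417, the smallest possible) and the share of variance 72.39% (exact p = 0.125). Of the recomputed tests and region counts, 88 kept their direction and side of the threshold or, for counts, stayed within a factor of 1.5. A further 45 moved beyond that, 11 lost significance and 1 gained it. Shares with a start and gene lists are not in these numbers. Part of the tally was fixed in advance. By construction, leaving out a library hardly changed the count wide in both libraries of another population. Without a replicate 2 library, the exact permutation test of the excess could not give a p below 0.167. Unknown depth limits every comparison of widths between libraries.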

Other observations

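Wide peaks on the X chromosome were left out of the regions above. The lists held 12 and 13 of them in C2, 1 and 11 in C18, 29 and 30 in C13, and 18 and 26 in C10. Both C13 libraries held more than any other library, and C10 replicate 2 came nearest. Wide autosomal peaks numbered 1558 and 1713 in C13, 1325 and 1650 in C10, 1499 and 1276 in C2, and 169 and 762 in C18. The share of all X peaks that were wide was not computed. Adding the X peaks to the count of wide peaks gave a share of variance between populations of 72.3% (exact permutation p = 0.0571).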
